A study of Mus musculus with 24 samples.

Results

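Dystrophin, its paralogue utrophin and 6 of their partners were followed as transcripts through every library of the study. The 8 genes are Dmd, Utrn, Dag1, Sgca, Sgcb, Sgcd, Dtna and Sspn, taken by gene symbol from a deposited table of 56748 genes, and each symbol matched 1 gene. The question was whether the partners or the paralogue follow the low Dmd transcript of mdx cells. All 8 genes passed the filter on low counts in both cell types.

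The 24 libraries are bulk RNA sequencing of primary mouse cells from the hindlimb muscle of pups under 5 days old, in 8 groups of 3 biological replicates. One line was C57 BL/10 (C57 below), with an intact Dmd gene, and the other C57BL/10-Dmdmdx (mdx), which carries the mdx mutation of Dmd in all of its cells. Myotubes, the fused multinucleate cells grown from myoblasts, received vehicle (0.001% DMSO) or 1 µM aldosterone, a mineralocorticoid hormone, for 48 h. The hormone medium was then replaced, and the myotubes were lysed after 15 h in the new medium, which was kept as conditioned medium. Fibroblasts received the conditioned medium of vehicle-treated or aldosterone-treated myotubes for 24 h. They are called vehicle and aldosterone fibroblasts below, although they were not dosed directly. All groups shared medium with charcoal-stripped horse serum. Fibroblasts are compared between lines that differ both in the cells and, per the labels, in the myotubes that made the medium, so the contributions of cell and medium cannot be told apart. Likewise each line is 1 strain, and the Dmd mutation and any other difference between the 2 stocks cannot be told apart. Replicates are called cultures 1 to 3 below. Whether replicates came from separate litters or animals is not stated, so p-values measure the spread between these cultures.

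Dystrophin is a long rod-like protein under the muscle cell membrane. Its amino-terminal part binds actin and its carboxy-terminal part binds dystroglycan, which spans the membrane and holds laminin in the matrix outside. The sarcoglycans and sarcospan stabilise this link, and dystrobrevin joins dystrophin on the inner face with the syntrophins. In mdx muscle a premature stop codon removes full-length dystrophin, and the partner proteins become scarce at the membrane. Utrophin is a close relative that can take dystrophin's place in the complex and is found at the membrane of immature fibres and at neuromuscular junctions. The transcripts measured here do not report protein at the membrane.

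Counts were assigned to whole genes, so the Dmd count sums transcripts from all of its start sites. RefSeq promoter entries of 300 bases (250 before the start and 50 after it, build GRCm38.p6) were found for 7 of the 8 members, 10 entries in all. Matches were searched on both strands for 4 patterns: the E-box CANNTG bound by the MyoD family, the GC box GGGCGG bound by Sp1, the CArG box and the MEF2 site. Of 32851 promoters of this length, 72.3% held an E-box, 35.7% a GC box, 1.6% a CArG box and 3.2% a MEF2 site. The 2 Dmd entries are shown because they are 2 different sources of the same count, Sgca because it separated the cell types most among the members, and Dag1 because it is transcribed in both. Capitals mark matches, and overlapping matches run together.
Dmd, upstream start, chrX:82948620-82948919, plus strand: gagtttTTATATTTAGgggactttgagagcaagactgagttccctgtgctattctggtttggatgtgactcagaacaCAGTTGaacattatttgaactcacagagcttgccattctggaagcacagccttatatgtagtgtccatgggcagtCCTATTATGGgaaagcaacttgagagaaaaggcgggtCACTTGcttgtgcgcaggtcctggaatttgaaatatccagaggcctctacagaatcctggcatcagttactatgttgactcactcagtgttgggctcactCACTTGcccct
Dmd, downstream start, chrX:85048045-85048344, plus strand: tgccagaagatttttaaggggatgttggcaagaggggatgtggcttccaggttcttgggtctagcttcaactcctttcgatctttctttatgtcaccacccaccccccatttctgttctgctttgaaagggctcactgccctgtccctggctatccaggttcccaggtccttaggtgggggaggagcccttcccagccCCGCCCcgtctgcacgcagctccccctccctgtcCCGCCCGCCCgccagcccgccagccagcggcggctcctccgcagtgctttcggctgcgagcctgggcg
Sgca, chr11:94976278-94976577, minus strand: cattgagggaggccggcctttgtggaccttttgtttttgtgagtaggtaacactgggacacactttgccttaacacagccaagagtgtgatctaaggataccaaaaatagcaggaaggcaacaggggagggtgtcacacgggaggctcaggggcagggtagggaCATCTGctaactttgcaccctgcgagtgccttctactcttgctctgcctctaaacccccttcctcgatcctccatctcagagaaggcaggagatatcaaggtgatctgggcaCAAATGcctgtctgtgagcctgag
Dag1, first entry, chr9:108263909-108264208, minus strand: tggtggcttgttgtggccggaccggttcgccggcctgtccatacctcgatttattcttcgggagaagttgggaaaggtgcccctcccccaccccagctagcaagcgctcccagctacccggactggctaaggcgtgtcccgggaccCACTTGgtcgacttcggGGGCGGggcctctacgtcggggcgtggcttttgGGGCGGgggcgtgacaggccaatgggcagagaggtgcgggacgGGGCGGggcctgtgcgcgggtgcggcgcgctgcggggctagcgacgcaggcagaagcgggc

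The upstream Dmd start, which gives full-length muscle dystrophin, held 3 E-box matches, 1 CArG match and 1 MEF2 match. Its GC content was 45.7% with 2 CpG, against a median of 52.7% and 7 CpG over all promoters. The downstream start, 2.10 Mb further along the gene, gives a short dystrophin that lacks the actin-binding part and is made in many tissues. It held 3 GC-box matches and 0 E-boxes, with 62.7% GC and 14 CpG. The Sgca window held 2 E-boxes, and the Dag1 window 1 E-box and 30 CpG at 69.7% GC. E-boxes occur by letters alone in most promoters, so these matches are a description of the windows.

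The library totals were 14133165 to 31144746 counts in myotubes and 16964960 to 42698139 counts in fibroblasts, and 0 pairs of libraries were identical. Levels are CPM, the reads of a gene relative to the size of its library, scaled by TMM over all 24 libraries, so that cell types share 1 scale. The cell type labels held against marker genes: 15 myotube markers summed to between 27239 and 49247 CPM in myotubes and between 16.1 and 164 CPM in fibroblasts. Differences are log2 changes with their standard error (SE) and 95% interval from edgeR's quasi-likelihood test, and a gene was called at an adjusted p (Benjamini-Hochberg, all genes tested) below 0.05.

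Dmd (ENSMUSG00000045103, mm39 chromosome X, 81992476 to 84249747, plus strand) was low in every mdx library of both cell types. The vehicle cultures of C57 myotubes held 445, 352 and 378 CPM, and the aldosterone cultures 478, 485 and 429 CPM. Those of mdx held 35.3, 41.5 and 55.8 CPM without and 42.99, 46.0 and 70.1 CPM after the hormone. The lines did not overlap, and mdx culture 3 was the highest of its line under both treatments. Fibroblasts of C57 held 23.1, 29.2 and 30.005 CPM with vehicle and 29.6, 37.0 and 36.6 CPM with aldosterone. Those of mdx held 12.2, 8.57 and 8.79 CPM with vehicle and 8.97, 7.28 and 9.06 CPM with aldosterone, again with no overlap between the lines. The mdx myotubes overlapped the range of C57 fibroblasts: the lowest mdx myotube library, at 35.3 CPM, lay below the highest C57 fibroblast library, at 37.0 CPM.

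**Figure D1:**
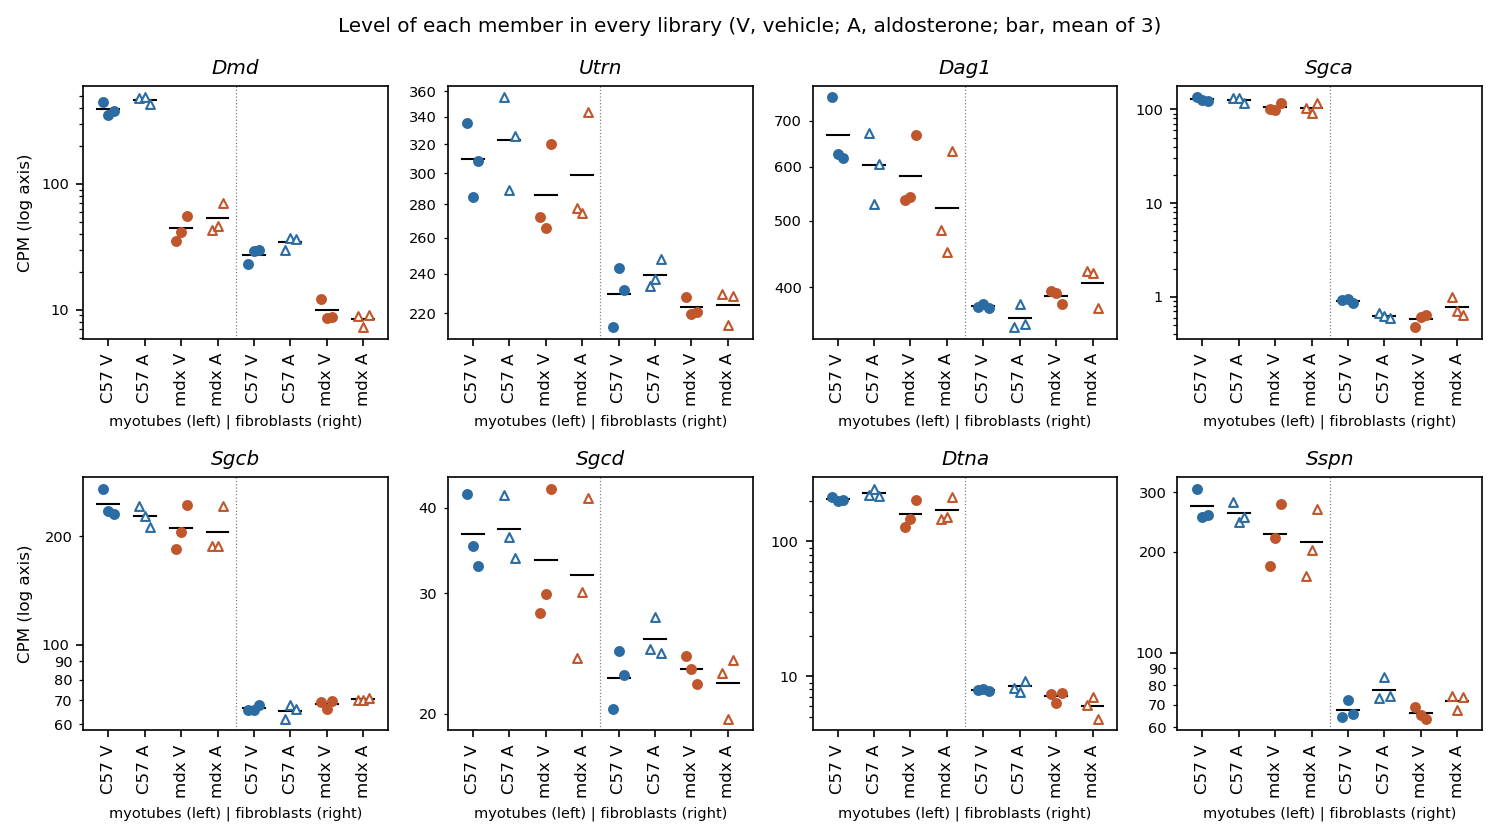
CPM on log axes for the 8 members in each of 24 libraries, with C57 in blue, mdx in orange, vehicle (V) as filled circles, aldosterone (A) as open triangles and the mean of 3 as a bar; the axes differ between panels and do not start at 0. Dmd is the member whose mdx libraries lie below all C57 libraries of the same cell type under both treatments and in both cell types.

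Between the lines, Dmd fell by 3.16 on the log2 scale in vehicle myotubes (SE 0.21, 95% interval -3.62 to -2.70, edgeR adjusted p = 5.8e-05), to 11.2% of its C57 level. Under aldosterone the change was -3.15 (adjusted p = 5.86e-05), to 11.3%. In fibroblasts Dmd was at 35.8% of C57 with vehicle medium (log2 change -1.48, 95% interval -1.83 to -1.13, adjusted p = 0.000342). With aldosterone medium it was at 24.2% (log2 change -2.04, 95% interval -2.40 to -1.69, adjusted p = 2.73e-05). Few genes of all those tested were called between the lines: 0.362% of genes in vehicle myotubes, 0.311% in aldosterone myotubes, 1.1% in vehicle fibroblasts and 1.23% in aldosterone fibroblasts.

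The drop was larger in myotubes than in fibroblasts under vehicle. The difference between the 2 line effects was -1.66 on the log2 scale (SE 0.27, 95% interval -2.23 to -1.10, edgeR adjusted p = 0.0147), in a fit of all 24 libraries that called 0.23% of genes. This call was lost in a fit of the 12 libraries compared (-1.68, adjusted p = 0.0898), without mdx vehicle myotube replicate 1 (-1.52, adjusted p = 0.0522) and without mdx vehicle fibroblast replicate 2 (-1.76, adjusted p = 0.0534). Among the other 7 members this difference was called for 0, with 0 at an unadjusted p below 0.05 and 0 called by DESeq2 or by limma voom.

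None of the other 7 members was called between the lines in any of the 4 comparisons by edgeR. At an unadjusted p below 0.05 they numbered 2 in vehicle myotubes, 2 in aldosterone myotubes, 1 in vehicle fibroblasts and 3 in aldosterone fibroblasts. Of all genes tested, 2273 and 2469 of 15763 in myotubes and 1997 and 2308 of 16671 in fibroblasts were under the same unadjusted threshold. DESeq2 called 0, 0, 0 and 1 of them, and limma voom 0 in each. Libraries of the 2 lines did not overlap, in either direction, for 1 of the 7 in vehicle and 2 in aldosterone myotubes. In fibroblasts this held for 3 with vehicle and 4 with aldosterone. How many of all genes separate groups in this way was not counted. All 7 estimates were below 0 in myotubes under either treatment, with a median of -0.23 with vehicle and -0.24 with aldosterone, against -0.00 and -0.02 over all genes tested. Their 95% intervals in vehicle myotubes lay between -0.76 and 0.30, and none reached the interval of Dmd. In fibroblasts 3 estimates were above 0 and 4 below 0 under either medium, with medians of -0.03 and -0.11 against 0.00 and 0.01 over all genes.

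**Figure D2:**
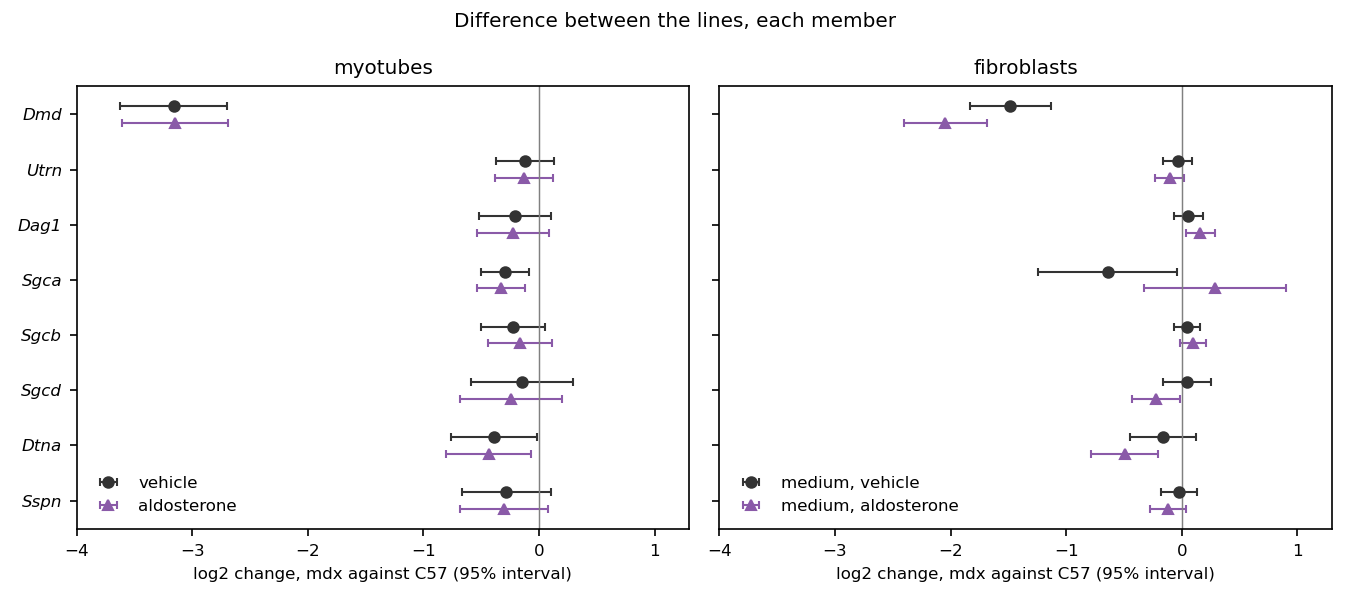
Log2 change of each member between the lines (mdx against C57) with its 95% interval, in myotubes on the left and fibroblasts on the right, with vehicle as circles and aldosterone as triangles. Dmd stands at -3.16 and -3.15 in myotubes and at -1.48 and -2.04 in fibroblasts, while the intervals of the other 7 members in myotubes lie between -0.80 and 0.30.

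Utrn (ENSMUSG00000019820, mm39 chromosome 10, 12257932 to 12745109) encodes utrophin, the paralogue. In C57 myotubes its level was 336, 285 and 308 CPM with vehicle and 355, 289 and 326 CPM with aldosterone. The mdx myotubes held 272.5, 266 and 320.0 CPM with vehicle and 278, 275 and 344 CPM with aldosterone, so the lines overlapped. In C57 fibroblasts it was 213, 243 and 232 CPM with vehicle and 234, 237 and 248 CPM with aldosterone. In mdx fibroblasts it was 228, 219.5 and 221 CPM with vehicle and 229.6, 214 and 228 CPM with aldosterone. The vehicle lines overlapped, while all 3 aldosterone mdx fibroblast libraries lay below the 3 of C57 by a small margin.

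The line difference of Utrn was -0.12 in vehicle myotubes (95% interval -0.37 to 0.13, edgeR adjusted p = 0.657) and -0.13 in aldosterone myotubes (-0.38 to 0.12, adjusted p = 0.605). In fibroblasts it was -0.04 with vehicle (-0.16 to 0.09, adjusted p = 0.884) and -0.11 with aldosterone (-0.23 to 0.02, adjusted p = 0.462). The upper bounds of these intervals, 0.13, 0.12, 0.09 and 0.02, are the largest rises of Utrn within them. Relative to Dmd, per kilobase of the deposited gene length, Utrn stood at 1.05 to 1.13 in vehicle C57 myotubes and at 7.97 to 10.7 in vehicle mdx myotubes. With aldosterone the ratio was 0.83 to 1.055 in C57 myotubes and 6.83 to 8.99 in mdx myotubes. Fibroblasts held 10.7 to 12.9 in C57 and 26.0 to 35.7 in mdx with vehicle, and 8.92 to 11.0 in C57 and 35.1 to 41.0 in mdx with aldosterone. Every mdx library lay above every C57 library of its cell type, with the denominator Dmd called between the lines and Utrn not.

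**Figure D3:**
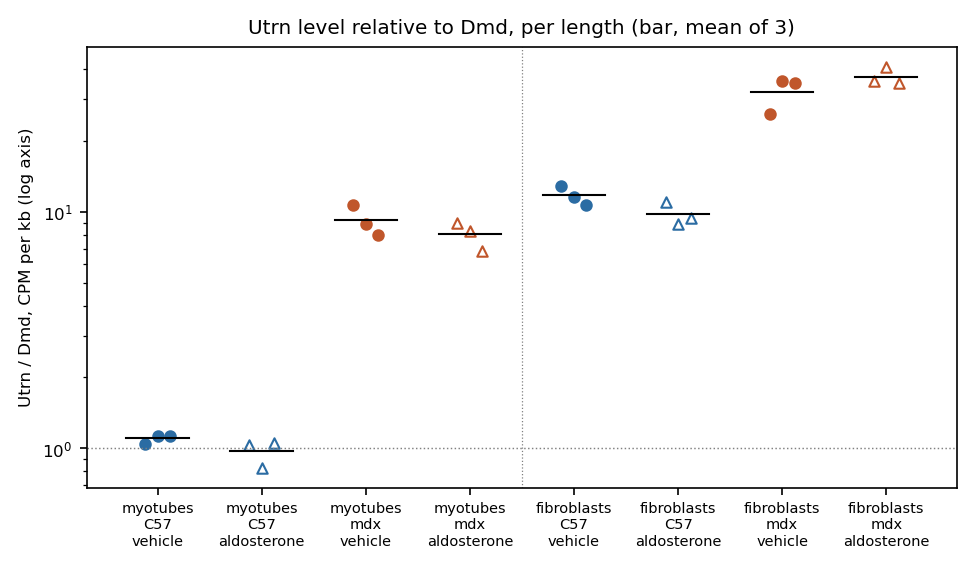
Ratio of Utrn to Dmd levels, each in CPM per kilobase of gene length, on a log axis for each of 24 libraries in 8 groups (bar, mean of 3; dotted line, equal levels). Vehicle C57 myotubes lie between 1.05 and 1.13, mdx myotubes between 6.83 and 10.7 over both treatments, and mdx fibroblasts between 26.0 and 41.0.

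The receptor of the complex, Dag1 (ENSMUSG00000039952, mm39 chromosome 9, 108081833 to 108141157), encodes dystroglycan, whose sugar chains bind laminin. Its vehicle levels were 757, 626 and 619 CPM in C57 myotubes and 537, 541.5 and 666.5 CPM in mdx myotubes, and the lines overlapped. Its line difference was -0.21 in vehicle myotubes (95% interval -0.52 to 0.11, edgeR adjusted p = 0.531). Fibroblasts held 372.9 to 377.8 CPM in C57 and 378.1 to 395.3 CPM in mdx with vehicle, without overlap by a small margin. The estimate there was 0.06 (-0.07 to 0.18, edgeR adjusted p = 0.774). With aldosterone medium they held 350 to 378 CPM in C57 and 373 to 423 CPM in mdx, which overlapped. That difference was not called and lay between 0.13 and 0.21 under the alternative settings.

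Of the sarcoglycans, Sgca (ENSMUSG00000001508, mm39 chromosome 11, 94853617 to 94867153) encodes the alpha subunit found in striated muscle. It lay at 134, 125 and 123 CPM in vehicle C57 myotubes and at 101.5, 97.6 and 116 CPM in vehicle mdx myotubes. With aldosterone it lay at 133, 131 and 118 CPM in C57 and at 103, 90.5 and 116 CPM in mdx. The lines did not overlap under either treatment, yet the difference was not called: -0.29 with vehicle (95% interval -0.50 to -0.08, edgeR adjusted p = 0.228) and -0.33 with aldosterone (-0.54 to -0.12, adjusted p = 0.176). In fibroblasts Sgca had 9 to 39 counts per library, at 0.476 to 0.997 CPM. Its fibroblast estimates were -0.64 with vehicle (edgeR adjusted p = 0.373) and 0.29 with aldosterone (adjusted p = 0.727). All 14 tested myotube markers had the same signs there, below 0 with vehicle and above 0 with aldosterone, and their part was not tested. The gene H1f9, annotated over Sgca on the opposite strand, held at most 26 counts in a library prepared without strand.

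Sgcb (ENSMUSG00000029156, mm39 chromosome 5, 73790092 to 73805133) and Sgcd (ENSMUSG00000020354, mm39 chromosome 11, 46787080 to 47879796) encode the beta and delta subunits, which form the core of the sarcoglycan group. Sgcb lay at 271, 235 and 231 CPM in vehicle C57 myotubes and at 184, 205.5 and 244 CPM in vehicle mdx myotubes. Its line difference was -0.23 (95% interval -0.50 to 0.05, edgeR adjusted p = 0.432). Sgcd lay at 41.9, 35.2 and 32.8 CPM in C57 and at 28.1, 29.9 and 42.6 CPM in mdx, a difference of -0.14 (-0.58 to 0.30, adjusted p = 0.785). For both genes mdx culture 3 was within or above the range of C57, and mdx cultures 1 and 2 were below it. In fibroblasts Sgcb stayed between 62.3 and 71.1 CPM in all 12 libraries and Sgcd between 19.7 and 27.7 CPM. The lines overlapped for both with vehicle medium and for neither with aldosterone medium. There Sgcb lay higher in mdx (70.0 to 71.1 against 62.3 to 68.1 CPM in C57). Sgcd lay lower in mdx (19.7 to 23.9 against 24.5 to 27.7 CPM in C57), and neither gene was called.

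Sspn (ENSMUSG00000030255, mm39 chromosome 6, 145877367 to 145910949) encodes sarcospan, a membrane protein bound to the sarcoglycans. It lay at 307, 253 and 257 CPM in vehicle C57 myotubes and at 182, 219.7 and 276 CPM in vehicle mdx myotubes, a difference of -0.28 (95% interval -0.66 to 0.10, edgeR adjusted p = 0.478). Dtna (ENSMUSG00000024302, mm39 chromosome 18, 23548192 to 23792772) encodes alpha-dystrobrevin on the inner face. It lay at 214, 199.5 and 204.5 CPM in vehicle C57 myotubes and at 129, 145.5 and 202 CPM in vehicle mdx myotubes. Its difference was -0.39 with vehicle (-0.76 to -0.02, adjusted p = 0.33) and -0.44 with aldosterone (-0.80 to -0.07, adjusted p = 0.259). In aldosterone myotubes Dtna held 217 to 245 CPM in C57 and 146 to 214 CPM in mdx, without overlap. Vehicle fibroblasts held 7.82 to 8.11 CPM in C57 and 6.38 to 7.53 CPM in mdx, also without overlap. In aldosterone fibroblasts Dtna held 8.26, 7.70 and 9.31 CPM in C57 and 6.11, 7.003 and 4.87 CPM in mdx, which did not overlap. That difference was -0.49 (-0.78 to -0.20, edgeR adjusted p = 0.0987) and was called by DESeq2 (adjusted p = 0.0375).

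In the myotube cultures the summed levels of fibroblast and endothelial markers separated the lines, and those of the other cell type markers overlapped. The 15 myotube markers summed to 39896 to 49247 CPM in C57 and to 27239 to 34941 CPM in mdx cultures 1 and 2, but to 44708 and 42875 CPM in mdx culture 3. The 11 fibroblast markers, of which Tcf21 had 0 counts, summed to 801 to 2293 CPM in C57 myotubes and to 2516 to 6728 CPM in mdx myotubes. Macrophage markers, 10 genes with none at 0 counts in a line, summed to 5.61 to 205 CPM in C57 myotubes and to 2.54 to 80.9 CPM in mdx myotubes. The 8 endothelial markers summed to 81.5 to 237 CPM in C57 and to 31.6 to 70.7 CPM in mdx. Schwann cell markers summed to 101 to 159 CPM in C57 and 88.8 to 140.2 CPM in mdx, and smooth muscle and pericyte markers to 4314 to 4858 and 3294 to 4325 CPM. Most of that last sum was Des, which muscle cells also express, at a mean of 4125 CPM in vehicle C57 and 3460.4 CPM in vehicle mdx myotubes. In the vehicle comparison 14 of 15 myotube, 10 of 10 macrophage and 8 of 8 endothelial marker estimates were below 0 and 9 of 10 tested fibroblast marker estimates above 0, and edgeR called 0 of them. At an unadjusted p below 0.05 edgeR had 3 myotube, 5 fibroblast, 3 macrophage and 6 endothelial markers, beside 2273 of all 15763 genes tested. DESeq2 called 0, 1, 0 and 4, and limma voom 0 of each. Over the 12 myotube libraries mdx culture 3 was the highest of its line for all 8 members under both treatments. In bulk RNA a smaller share of myotubes and less RNA per myotube cannot be told apart. In mdx culture 3, whose myotube markers lay in the C57 range, Dmd was at 55.8 and 70.1 CPM, and the lowest C57 library was at 352 CPM. Sgca in that culture was at 116 CPM under both treatments, below the lowest C57 library at 118 CPM, whereas Sgcb and Sspn lay within the C57 range. This is 1 culture, and the part of these markers in the myotube differences, that of Dmd included, was not tested.

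**Figure D4:**
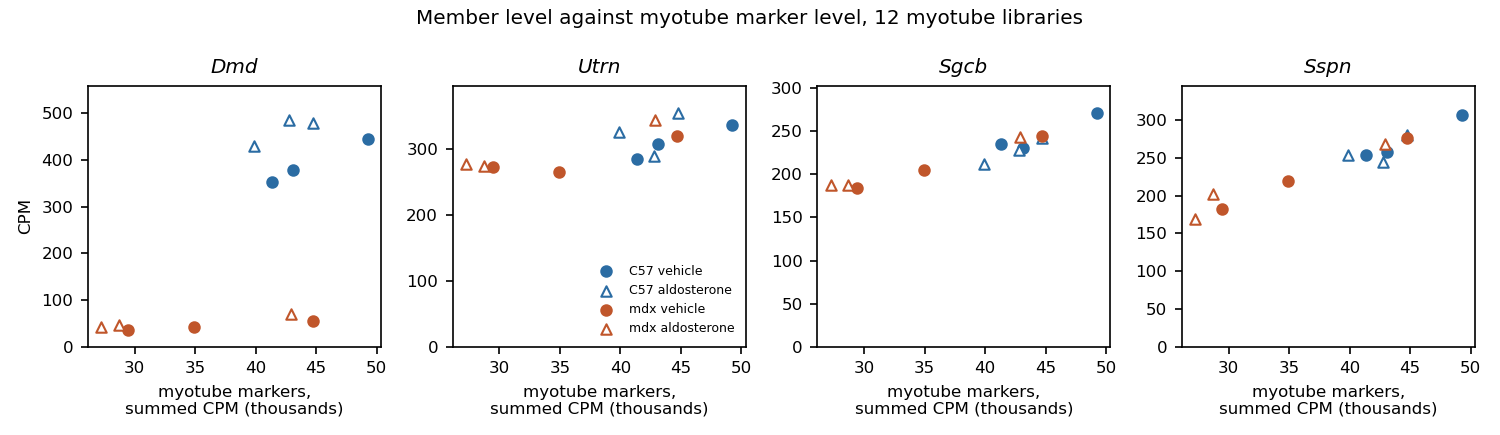
CPM of Dmd, Utrn, Sgcb and Sspn (axes from 0) against the summed CPM of 15 myotube markers in 12 myotube libraries, by line (colour) and treatment (shape). For Sgcb and Sspn the mdx culture 3 libraries, at 44708 and 42875 CPM of markers, lie among the C57 points. For Dmd these libraries are at 55.8 and 70.1 CPM.

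Across the 12 myotube libraries, which share lines and cultures, the levels of the members other than Dmd ran together. Log2 levels of Sgcb and Sspn had a Pearson r of 0.95, Sgcd and Sspn 0.94, and Sgcb and Sgcd 0.91. Against Dmd, r was 0.88 for Sgca, 0.82 for Dtna and 0.52 for Utrn. In the 12 fibroblast libraries Dmd had an r of 0.73 with Dtna, 0.67 with Utrn and -0.71 with Dag1, and Sgcb with Sspn had -0.03. These are descriptions over libraries that fall into 2 lines.

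Genes most like a member over 12 libraries were ranked by Pearson r among genes averaging at least 5 CPM. In myotubes Dmd was most like Mri1 (0.976), Nlrc3 (0.975), Trmt1 (0.968), Akap8l (0.967) and Rab6b (0.966), over libraries in which Dmd separated the 2 lines. Among the genes most like Utrn were Igdcc4 (0.964), Pdpr (0.958) and Ehd4 (0.954). Sgca was most like Ndufv1 (0.977), Retreg1 (0.973), Bex1 (0.973), Myh1 (0.970) and Tmem182 (0.969). In fibroblasts Dmd was most like Lpp (0.986), Adcy2 (0.974), Esm1 (0.969), Loxl2 (0.967) and Fancc (0.966). Utrn there was most like Lims2 (0.952), Csrp1 (0.936), Sbf2 (0.935), Igf1 (0.930) and Nexn (0.923).

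Other genes of the complex and its surroundings were grouped in lists. In myotubes 0 of 10 tested further subunits, 0 of 16 glycosylation enzymes of dystroglycan, 0 of 10 matrix ligands, 0 of 8 cytoskeletal partners and 0 of 9 genes of the integrin laminin receptor were called between the lines under either treatment by edgeR. At an unadjusted p below 0.05 these lists held 4, 2, 2, 2 and 2 genes with vehicle and 4, 0, 2, 2 and 0 with aldosterone. The same threshold was passed by 2273 of all 15763 genes with vehicle and 2469 with aldosterone. Limma voom called 0 in each, and DESeq2 called 1 further subunit under either treatment, 1 ligand with vehicle and 1 cytoskeletal partner with aldosterone. Among the further subunits 7 of 10 estimates were below 0 in vehicle myotubes, with a median of -0.17, and examples were Drp2 at -0.59 (edgeR adjusted p = 0.154, called by DESeq2 with an adjusted p of 0.0248) and Sntb1 at -0.58 (adjusted p = 0.204). Drp2 encodes a dystrophin-related protein and Sntb1 a syntrophin. The glycosylation enzymes had 12 of 16 estimates above 0, with a median of 0.09.

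In fibroblasts 3 genes of these lists were called between the lines. Lama2, the laminin chain that dystroglycan binds in muscle, was lower in mdx with vehicle (22.8 ± 4.14 against 39.3 ± 5.29 CPM, SD, n = 3, log2 change -0.78, edgeR adjusted p = 0.0123). It was also lower with aldosterone (21.7 ± 1.35 against 41.2 ± 4.18 CPM, log2 change -0.93, adjusted p = 0.00407). Cav3, the caveolin of muscle that binds the complex, was higher in mdx at a low level, 3.18 ± 0.52 against 1.72 ± 0.23 CPM with vehicle (log2 change 0.90, adjusted p = 0.017) and 3.97 ± 0.13 against 2.12 ± 0.12 CPM with aldosterone (0.89, adjusted p = 0.0202). Dtnb, beta-dystrobrevin, was lower with vehicle only (28.0 ± 1.304 against 35.2 ± 2.52 CPM, log2 change -0.33, adjusted p = 0.0268), and its estimate with aldosterone was -0.04 (adjusted p = 0.84). The difference of Dtnb between the media was not tested. In a fit of only the 6 vehicle libraries the calls of Lama2 (-0.78, adjusted p = 0.0866), Cav3 (0.90, adjusted p = 0.0836) and Dtnb (-0.33, adjusted p = 0.0917) were lost. Dtnb with vehicle also lost its call without C57 culture 1 or 2 or mdx culture 2 or 3 (adjusted p from 0.058 to 0.164). Cav3 lost it without the same vehicle cultures (0.0679 to 0.127) and, with aldosterone, without C57 culture 1, 2 or 3 or mdx culture 3 (0.0647 to 0.0936). In these lists 2 of 8 further subunits and 1 of 9 matrix ligands were called with vehicle, and 1 of 8 and 1 of 9 with aldosterone. Of all genes tested, 1.1% were called with vehicle and 1.23% with aldosterone. Glycosylation enzymes, cytoskeletal partners and genes of the integrin laminin receptor had no call under either medium. Beside these, smooth muscle and pericyte markers summed to 376 to 500 CPM in C57 and 319 to 434 CPM in mdx fibroblasts. Of the 8 tested, Myh11 was called lower in mdx with aldosterone (-0.999, edgeR adjusted p = 0.00344) and stood at -0.55 with vehicle (adjusted p = 0.105), and Cnn1 was at -0.97 with aldosterone (adjusted p = 0.0709). Their part in the fibroblast differences was not tested.

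All 8 members were higher in vehicle C57 myotubes than in vehicle C57 fibroblasts, on a background in which 74.7% of genes were called in either direction. Sgca was 139-fold higher (log2 change 7.11, SE 0.13, edgeR adjusted p = 4.64e-20), Dtna 25.8-fold (4.69) and Dmd 14.3-fold (3.84). Sspn was 4.03-fold higher (2.01), Sgcb 3.69-fold (1.88), Dag1 1.78-fold (0.83), Sgcd 1.63-fold (0.70) and Utrn 1.35-fold (0.43, adjusted p = 0.000328). The members' median was 1.95 against -0.03 over all genes. In mdx all 8 were called higher too, with 70.5% of genes called, and Dmd was 4.51-fold higher (2.17) and Utrn 1.28-fold (0.36, adjusted p = 0.00191). There Utrn (0.16, adjusted p = 0.101) and Sgcd (0.32, adjusted p = 0.056) lost their call when libraries were scaled by totals alone, a scaling that moved the median of all genes by -0.20 (by -0.21 in C57). Sgcd in mdx also lost it without mdx vehicle myotube replicate 3 (0.32, adjusted p = 0.0815).

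Of 11 further subunits tested in C57, 7 were higher in myotubes and 4 higher in fibroblasts. The epsilon sarcoglycan Sgce was higher in fibroblasts, at 55.9 ± 9.57 CPM against 11.2 ± 3.501 CPM in vehicle C57 myotubes (SD, n = 3, log2 change -2.31, edgeR adjusted p = 1.79e-07). Among syntrophins Sntb1 was higher in myotubes (265 ± 27.5 against 1.26 ± 0.492 CPM, 7.75) and Sntb2 higher in fibroblasts (153 ± 6.06 against 42.6 ± 1.88 CPM, -1.85). Dtnb was higher in fibroblasts (35.2 ± 2.52 against 7.52 ± 1.47 CPM, -2.25), opposite to Dtna. Cav3 (7.57) and the laminin receptor subunit Itga7 (6.25) were higher in myotubes.

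Per kilobase of gene length the order of the members also differed between cell types. In vehicle C57 myotubes the mean levels were 105 CPM per kilobase for Dag1, 73.5 for Sgca, 60.6 for Sgcb and 54.5 for Sspn. They were 18.1 for Utrn, 16.5 for Dmd, 12.2 for Dtna and 4.44 for Sgcd. In vehicle C57 fibroblasts Dag1 led at 59.0 CPM per kilobase, before Sgcb at 16.4, Sspn at 13.5 and Utrn at 13.4. Sgcd followed at 2.73, Dmd at 1.15, Sgca at 0.527 and Dtna at 0.471. Gene length is that of the deposited table and counts all annotated exons, so long genes with alternative ends are scaled down.

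Over the 8 groups the order of means spanned a wider range for Dmd than for Utrn. Dmd ran from C57 aldosterone myotubes (464 ± 30.3 CPM) and C57 vehicle myotubes (392 ± 47.9 CPM) to mdx aldosterone and vehicle myotubes (53.0 ± 14.8 and 44.2 ± 10.5 CPM). Below these came C57 aldosterone and vehicle fibroblasts (34.4 ± 4.16 and 27.4 ± 3.79 CPM), then mdx vehicle and aldosterone fibroblasts (9.86 ± 2.05 and 8.44 ± 1.00 CPM, SD, n = 3). Within both cell types of mdx, the 2 treatments differed by less than the pooled SD. Utrn ran from 323 ± 32.9 to 286 ± 29.7 CPM over the 4 myotube groups and from 239.7 ± 7.43 to 223 ± 4.65 CPM over the 4 fibroblast groups. In that order only the step from myotubes to fibroblasts exceeded the pooled SD of its neighbours.

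Aldosterone tests asked whether the hormone changed the members in the treated myotubes or in fibroblasts given their medium. Without a pairing of cultures 0 of 8 members were called in any of the aldosterone comparisons by edgeR or DESeq2. Limma voom, which had culture as a random block, also called 0 of 8. At an unadjusted p below 0.05 edgeR had 0 members in C57, in mdx and in their mean in myotubes, and 1, 0 and 1 in fibroblasts. For the difference between the lines it had 0 members in myotubes and 2 in fibroblasts. The shares of all genes called were 0.0127% in C57 myotubes, 0% in mdx myotubes and 0.216% for the mean, and 0%, 0% and 0.012% in fibroblasts. The difference of the aldosterone effect between the lines called 0% of genes in both cell types. Over all genes, 783 in C57 myotubes, 542 in mdx myotubes and 1167 for their mean had an unadjusted p below 0.05, as had 1996 in C57 fibroblasts, 818 in mdx fibroblasts and 2540 for their mean, and for the difference between the lines 152 in myotubes and 391 in fibroblasts.

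The replicate numbers were taken as a pairing of the myotube cultures. Same-numbered vehicle and aldosterone myotube libraries deviated together in every pair, with r of 0.36 to 0.70 in C57 and 0.47 to 0.67 in mdx. In C57 the best differently numbered match reached 0.35 for culture 2 and 0.26 for culture 3, beside 0.49 and 0.36 for the own number. It was negative for C57 culture 1 and the mdx cultures. Same-numbered C57 and mdx libraries, which are separate cultures, had r of -0.08 to 0.25 with vehicle and -0.16 to 0.34 with aldosterone. The culture was also fitted as a block, and calls under it rest on this pairing. With the block, Dmd rose with aldosterone as the mean of both lines by 0.25 on the log2 scale (SE 0.05, 95% interval 0.155 to 0.355, edgeR adjusted p = 0.00111), higher in 6 of 6 pairs, where 8.96% of genes were called. In C57 alone the change was 0.26 (adjusted p = 0.018, 4.98% of genes called) and in mdx alone 0.25 (adjusted p = 0.0703, 2.33% of genes called). The difference between the lines was -0.00 (95% interval -0.21 to 0.20), in a test that called 0.0444% of genes. Dmd stayed called for the mean when any 1 culture was left out (0.20 to 0.29, adjusted p from 0.000373 to 0.0171). In C57 it kept the call without C57 culture 1 (0.33, adjusted p = 0.012) and lost it without culture 2 (0.14, adjusted p = 0.197) or culture 3 (0.30, adjusted p = 0.0557). It was not called with culture as a random block in limma voom, for the mean (0.26, adjusted p = 0.0969) or in C57 (0.25, adjusted p = 0.286).

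Dag1 went the other way under the block and fell by 0.15 as the mean of both lines (SE 0.04, edgeR adjusted p = 0.0183), lower in 6 of 6 pairs. Its vehicle levels were 757, 626 and 619 CPM in C57 and its aldosterone levels 672, 529.5 and 606 CPM, and in mdx 537, 541.5 and 666.5 CPM became 484, 449.9 and 632 CPM. That call was lost when C57 culture 1 (adjusted p = 0.0657), mdx culture 1 (0.0517) or mdx culture 2 (0.115) was left out, and with the random block (-0.15, adjusted p = 0.176). Dtna stood just outside at 0.13 (adjusted p = 0.0534), higher in 6 of 6 pairs, and was called without C57 culture 1 (0.15, adjusted p = 0.0473). Utrn was higher in 6 of 6 pairs at 0.06 (95% interval -0.02 to 0.14, adjusted p = 0.366), and Sspn lower in 6 of 6 at -0.08 (-0.16 to 0.00, adjusted p = 0.259). Sgca, Sgcb and Sgcd lay between -0.07 and -0.01.

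**Figure D5:**
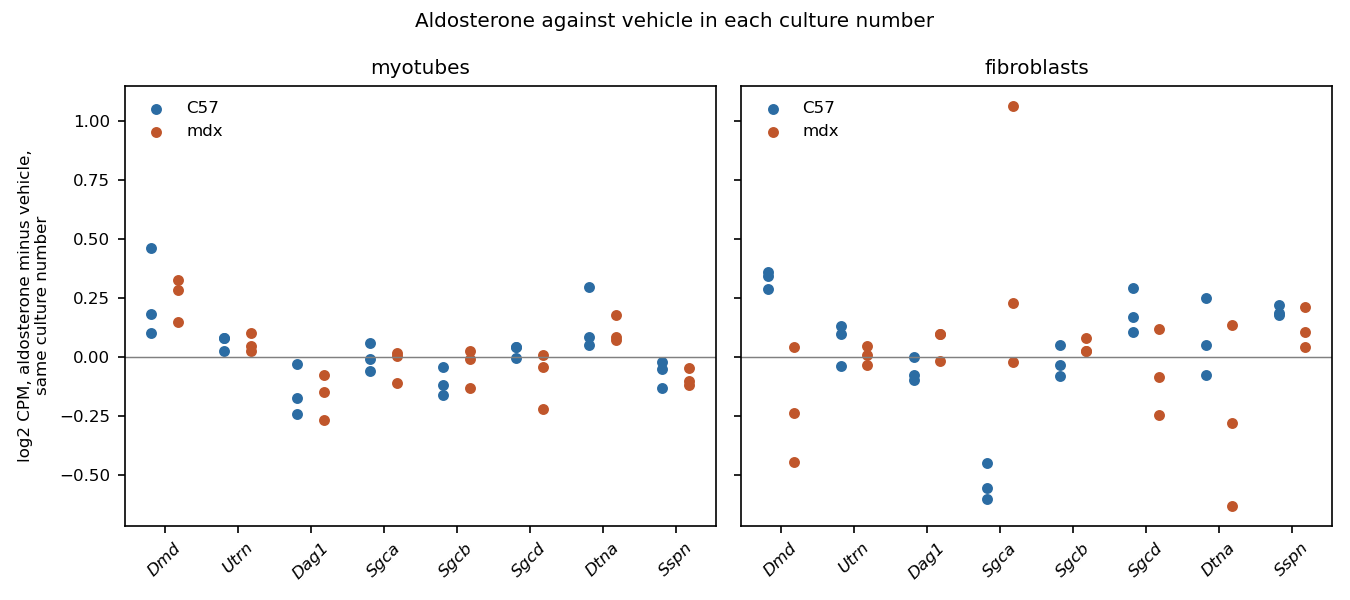
Log2 CPM with aldosterone minus vehicle in each same-numbered pair of cultures, for the 8 members in myotubes (left) and fibroblasts (right), with C57 in blue and mdx in orange. In myotubes Dmd, Utrn and Dtna are above 0 and Dag1 and Sspn below 0 in 6 of 6 pairs each, whereas in fibroblasts only Sspn keeps 1 direction, above 0 in 6 of 6. How many of all genes keep 1 direction was not counted, and same-numbered C57 fibroblast libraries did not pair.

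Under the same block other genes of the complex and its surroundings moved in both directions. Of 10 further subunits 2 rose, Nos1 by 0.41 (edgeR adjusted p = 0.0183) and Sntg1 by 0.80 (adjusted p = 0.015, at 0.971 to 1.94 CPM in group means), and Cav3 fell by 0.17 (adjusted p = 0.00648). Nos1 encodes the neuronal nitric oxide synthase that dystrophin anchors. Of 9 genes around the integrin laminin receptor 2 rose, Itgb1 by 0.26 (adjusted p = 0.000125) and Tln2 by 0.19 (adjusted p = 0.00433). In the same list Itga7 (-0.25, adjusted p = 0.000192) and Itgb1bp2 (-0.25, adjusted p = 0.000133) fell. Of 8 cytoskeletal partners 3 rose, Synm by 0.29, Ank2 by 0.19 and Ank3 by 0.16. Of 10 matrix ligands 1 fell, Lama5 by 0.22 (adjusted p = 0.00176), and 0 of 16 glycosylation enzymes were called. Itgb1, Itga7, Itgb1bp2, Synm and Lama5 kept their calls whichever culture was left out. Nos1, Sntg1, Cav3, Tln2, Ank2 and Ank3 each lost theirs without at least 1 culture, among them mdx culture 3 for Nos1 (adjusted p = 0.119), Cav3 (0.057), Tln2 (0.0738), Ank2 (0.133) and Ank3 (0.0516). Sntg1 lost its call without C57 culture 3 (0.0631) or mdx culture 2 (0.0841). With culture as a random block limma voom called Itgb1 (adjusted p = 0.00374), Itga7 (0.0229) and Itgb1bp2 (0.0483) of the 11. In the same edgeR fit 6 of 15 myotube markers and 3 of 10 tested fibroblast markers fell and 6 of 10 macrophage markers rose, and their part in the members' changes was not tested. The macrophage mean combined unlike lines: in mdx 5 of 10 rose and in C57 1 fell, Tyrobp, which was at 2.67 in mdx (edgeR adjusted p = 0.000133) and -0.57 in C57 (adjusted p = 0.0378). The difference between the lines was called for 3 of 10, among them Tyrobp (3.24, adjusted p = 0.000385) and C1qc (2.29, adjusted p = 0.00685). The summed macrophage level of mdx culture 2 was 17.7 CPM with vehicle and 80.9 CPM with aldosterone, and the other mdx libraries lay between 2.54 and 7.83 CPM.

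In fibroblasts the hormone had gone to the myotubes and not to the cells measured. Dmd was higher in 3 of 3 same-numbered C57 libraries (0.33, 95% interval -0.00 to 0.66, edgeR adjusted p = 0.418) and in 1 of 3 of mdx (-0.23, -0.60 to 0.13, adjusted p = 0.916). The difference between these effects was -0.56 (-1.05 to -0.07) with an unadjusted quasi-likelihood p of 0.0287 and an edgeR adjusted p of 1. Sgca moved from 0.920, 0.956 and 0.869 CPM to 0.674, 0.629 and 0.590 CPM in C57 fibroblasts, without overlap but on at most 39 counts (-0.53, adjusted p = 0.466). Sspn was higher in 6 of 6 same-numbered libraries, with a mean change of 0.15 (0.04 to 0.26, edgeR adjusted p = 0.23). Same-numbered C57 fibroblast libraries did not pair (r from -0.02 to 0.13), so counts by number are a description. Utrn stayed between 213 and 248 CPM in all 12 fibroblast libraries.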

How the data were processed

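Poly(A) RNA of 24 libraries was sequenced from non-directional libraries, per the labels' protocols. The deposited counts are whole reads per gene made by the authors with featureCounts 1.5.0-p3 on mm39, per the submitters' processing notes (aligner and annotation release: not given in the sources used here). Deposited FPKM values were not used, and gene length was taken from the deposited table.

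In R 4.3.3, the 12 libraries of each cell type, or all 24 for cell type comparisons, were fitted with edgeR 4.0.16 (default filter, TMM, robust quasi-likelihood test, Benjamini-Hochberg adjustment). The fits tested 15763 genes in myotubes, 16671 in fibroblasts and 17864 over both. SE is the log2 change divided by the square root of F. Alternatives were DESeq2 1.42.0, limma 3.58.1 voom with culture as a random block, other scalings and filters, culture blocks in edgeR and leaving out each library. The analysis was tested on simulated data. Members and gene lists were chosen with earlier results of these data known. Named genes are the members, up to 2 called genes per list and comparison by smallest adjusted p, and the 5 genes most like Dmd, Utrn and Sgca in each cell type; other names were chosen after their values were seen. Some genes this rule names are not reported here.

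Same-numbered vehicle and aldosterone libraries were taken as paired in myotubes of both lines and in mdx fibroblasts, since each pair's deviations from the group means correlated above 0.1. Separate C57 and mdx myotube cultures of the same number reached an r of 0.34, so passing 0.1 does not by itself show a pairing.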

Additional observations from a re-analysis of the deposited data

Results flagged for a closer look

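Dmd stood out because its line effect differed between the cell types: mdx against C57 under vehicle was -3.16 in myotubes and -1.48 in fibroblasts on the log2 scale. The difference tested in the fit of all 24 libraries was -1.66 (SE 0.27, edgeR adjusted p = 0.0147), and the call depended on the libraries fitted, as given in the report. The fibroblast value includes any effect of the medium, and the part of the 2 start sites in it was not tested, since the counts do not separate them.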

How the results depend on the processing

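For the members, 235 of 248 counts of calls under the alternatives were equal to the main count or within a set ratio of it. A loss of few calls among many, such as Utrn and Sgcd between the mdx cell types under library totals, stays within that ratio. Of 1984 log2 changes 1963 kept their side of the threshold, and 0 called log2 changes reversed. Among uncalled log2 changes 100 changed sign, 5 of them between the lines, all in vehicle fibroblasts (Utrn, Sgcd and Sspn). The replicate block gave 1 member called for aldosterone in C57 myotubes and 2 for the mean of both lines, against 0 without it. Leaving out each culture under the block, chosen after seeing the data, gave 0 to 1 and 1 to 2. The block changed no other member call. In fibroblasts same-numbered libraries correlated above 0.1 in every pair of mdx (r from 0.11 to 0.31) and not in every pair of C57 (r from -0.02 to 0.13). DESeq2 called 2 members in aldosterone fibroblasts between the lines, against 1. For the difference of line effects a fit of only the groups compared called 0, and leaving out single libraries gave 0 to 1.

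Dmd between the lines ranged from -3.36 to -3.02 in vehicle myotubes, -3.40 to -3.01 in aldosterone myotubes, -1.67 to -1.38 in vehicle fibroblasts and -2.14 to -1.93 in aldosterone fibroblasts. Over 98 values in each of these comparisons the other 7 members were called 0, 0, 0 and 1 times. Over all genes DESeq2 called 370, 451, 468 and 544 in the 4 line comparisons, limma voom 85, 93, 235 and 250, and edgeR 57, 49, 184 and 205. For aldosterone in myotubes (C57, mdx and mean) edgeR called 2, 0 and 34 genes, the block 785, 367 and 1412 and DESeq2 57, 19 and 168. Limma voom, with culture as a random block, called 229, 32 and 542. In fibroblasts DESeq2 called 53 genes in C57 and 210 for the mean, against 0 and 2. For the difference of line effects it called 260 and limma voom 107, against 41. The cause of these shifts was not tested. Sgca in fibroblasts had 9 to 39 counts per library, and the part of depth in its uncalled differences was not tested. A fit of only the groups compared was not run for the mean and the difference of aldosterone effects, which use all 12 libraries.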
